A study of Caenorhabditis elegans with 24 samples.

Results

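The effect of losing DAF-16 was examined in FACS-sorted muscle cells of *C. elegans* at the high insulin/IGF-1 signaling (IIS) state, where DAF-2 is intact. It was taken from the 8 libraries that the labels name muscle cells of *daf-16(lf)* animals (n = 4) and of wild-type animals (n = 4), of 24 libraries in the whole mRNA-seq series. FACS passes single cells by a laser and collects them by fluorescence, and here it collected live cells that carried a GFP label in muscle. Both strains were synchronized and kept at the same temperature until young adulthood, and both carry the normal *daf-2* gene. The *daf-16(lf)* allele is mu86, a deletion in the gene, and each genotype was represented by 1 strain, so the *daf-16* lesion and any other difference between the strains cannot be told apart. The replicates were made independently according to the methods of the study. For the dependence on IIS state, 3 muscle cell libraries of the double mutant *daf-16(lf); daf-2(lf)* were set against 3 of *daf-2(lf)*. These animals carry the temperature-sensitive *daf-2* allele e1370 and were reared at a lower temperature before a shift near adulthood, so IIS state and rearing temperature cannot be told apart.

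DAF-16 is the FOXO transcription factor of the worm. Insulin-like ligands activate the receptor DAF-2, which signals through the PI3 kinase AGE-1 and the kinases PDK-1, AKT-1 and AKT-2. AKT phosphorylates DAF-16, which is then held in the cytosol by 14-3-3 proteins, so that its target genes respond when signaling through DAF-2 is low. The comparison asks how much of the muscle transcriptome depends on DAF-16 while the pathway is active.

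Abundance is given in TPM, a length-corrected share of all transcripts that sums to one total for every library. TPM keeps no read depth, so the counting error is unknown, and of a 0 it can only be said that the gene was listed at 0. Between 14320 and 16372 genes were above 0 in *daf-16(lf)* muscle cells and between 14277 and 16945 in wild-type muscle cells (two-sided exact permutation test with 70 regroupings, p = 0.943). Both libraries labelled wild-type all cells list at 0 the *daf-16* transcripts that mark the intact gene in wild-type muscle. They enter the shared estimate of spread and the filter that chose the genes to test, but not the difference itself. That filter counted them also in the fits that leave them out. The standard errors, intervals and p of the model below include them in that spread unless a fit without them is named. The sorted cells carried the defining genes of body wall muscle. The mean log2(TPM + 1) of 10 such genes, among them the myosin heavy chain *unc-54* and paramyosin *unc-15*, was between 10.10 and 10.62 in *daf-16(lf)* libraries and between 9.84 and 10.56 in wild-type libraries. In these bulk samples fewer cells of a type and less RNA per cell cannot be told apart.

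The *daf-16* gene (R13H8.1; chromosome I of WBcel235, 10750498 to 10776703, forward strand) was at 3.20, 3.42, 3.76 and 8.95 TPM in *daf-16(lf)* libraries 1 to 4, against 7.49, 7.43, 9.91 and 10.8 TPM in wild-type libraries 1 to 4. The totals of both genotypes overlap through *daf-16(lf)* replicate 4, and the log2 difference was -0.85 ± 0.32 (SE; limma, adjusted p = 1). The annotated isoforms separated the genotypes more clearly. Transcript a.1 (10771508 to 10776703) was listed at 0 in all 4 *daf-16(lf)* libraries, against 1.75, 1.16, 1.71 and 1.78 TPM in wild-type muscle. Transcript c.1 (10763103 to 10776702) was likewise listed at 0 in *daf-16(lf)* muscle, against 0.835, 1.53, 2.18 and 1.56 TPM in wild-type muscle. Transcript e.1, a short model that lies within the other isoforms (10772999 to 10775050), remained in both genotypes. It was at 3.06, 2.90, 3.38 and 7.35 TPM in *daf-16(lf)* muscle and at 3.38, 3.74, 4.03 and 7.06 TPM in wild-type muscle. Its share of all *daf-16* TPM was 88.0 ± 5.87% in *daf-16(lf)* and 50.4 ± 10.8% in wild-type libraries (SD, n = 4 each). Most of the *daf-16* signal left in *daf-16(lf)* muscle was thus assigned to e.1, and a.1 was listed at 0 in all muscle libraries labelled as lacking DAF-16 and present in all others.

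Replicate number rather than genotype separated the libraries. In a principal component analysis of the 500 most variable genes, PC1 held 82.4% of the variance and placed both replicate 4 libraries apart, at 55.5 for *daf-16(lf)* and 37.9 for wild-type, with the other 6 between -39.3 and -3.55. PC1 did not separate the genotypes (two-sided exact permutation test, p = 0.829). PC2 held 7.38% and placed the *daf-16(lf)* libraries at 10.5, 11.9, 1.55 and 6.44, against -5.06, -11.8, -12.1 and -1.54 for wild-type. These scores do not overlap, and p = 0.0286 is the smallest that 4 against 4 libraries can give in an exact permutation test. The test took no account of the pairing by replicate number. By the same exact permutation test, PC2 of all tested genes (p = 0.886) and PC2 without *daf-16(lf)* replicate 4 (p = 0.2) gave no such separation. Each of these is a newly computed axis, and later components were not tested. Over all tested genes, genotype held 8.75% of the variance among the 8 libraries and replicate number 70.5%. Replicate number has more levels than genotype, so a larger share would be its part also by chance.

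**Figure D1:**
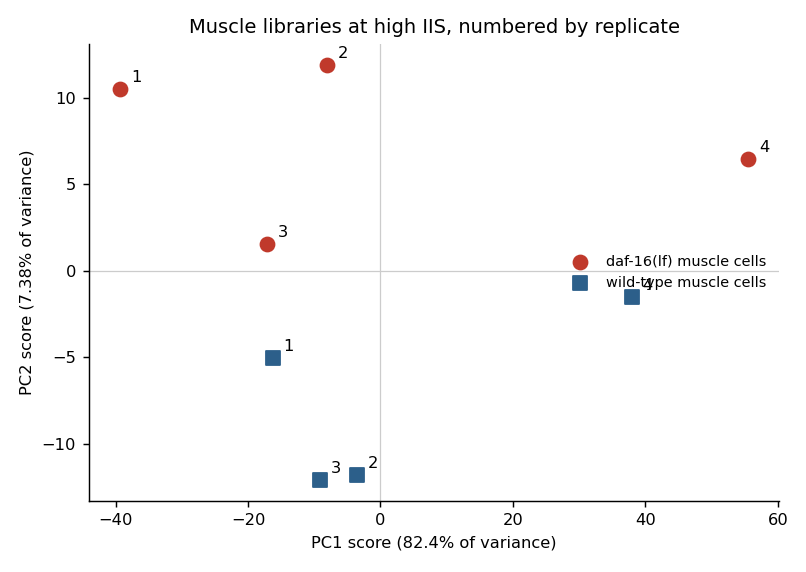
Scores of the 8 muscle libraries on PC1 (82.4% of variance) and PC2 (7.38%), with circles for daf-16(lf), squares for wild-type and the replicate number beside each point. Both replicate 4 libraries lie at the right (55.5 and 37.9 on PC1), and the genotypes separate on PC2.

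Cuticle genes, which are expressed by the hypodermis and other epithelia, were among the genes that carried PC1. Of the 30 largest loadings 12 belonged to the *col* family of collagens, which held 137 of the 14714 genes tested. *col-36* was at 0.354, 97.6, 6.78 and 807 TPM in *daf-16(lf)* libraries 1 to 4, against 0.794, 12, 0.476 and 566 TPM in wild-type libraries 1 to 4. Summed over 158 *col* genes, the collagens held 1344.5 to 4547.2 TPM in *daf-16(lf)* replicates 1 to 3 and 37018.3 TPM in replicate 4, against 4205.0 to 6829.9 TPM in wild-type replicates 1 to 3 and 22568.3 TPM in replicate 4. Replicate 4 was thus the highest in both genotypes. Some of the most abundant muscle genes were lowest in replicate 4. *unc-54* was at 3883.3 TPM in *daf-16(lf)* replicate 4 and at 4319.5 TPM in wild-type replicate 4, below the 11291.5 to 16752.2 TPM of the other 6 libraries. Other genes of body wall muscle had their highest level there, and the troponin I gene *unc-27* was at 2708.1 TPM in *daf-16(lf)* replicate 4 and at 2023.1 TPM in wild-type replicate 4, above the 1205.8 to 1401.0 TPM of the other 6 libraries. The part of this composition in the results below was not tested beyond leaving those libraries out.

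Of 14714 genes tested, 0 (0%) differed between *daf-16(lf)* and wild-type muscle cells at an adjusted p under 0.05 by limma, which moderates the variance of each gene by that of genes of similar abundance. The smallest adjusted p was 0.123. At an unadjusted p under 0.05 there were 29 genes higher and 76 lower in *daf-16(lf)* muscle (0.714% together). They became 51 and 140 when replicate number entered as a block, and 334 and 601 with that block in a model of the 8 libraries alone, both again with 0 genes past adjustment. If nothing differed, a share of all genes near 0.05 would be expected under that threshold. The share of 0.714% is far below it, so p of the main model were conservative. A gene list with 0 members under that threshold is therefore no sign that its genes did not change. In 56 genes every *daf-16(lf)* library was above every wild-type library (0.381%), and in 121 genes every one was below (0.822%). The split depended on scaling, since quantile normalization gave 212 higher and 173 lower genes without overlap, and 146 higher and 183 lower genes at an unadjusted p under 0.05. The median log2 difference over all genes was 0.00, and it stayed between -0.01 and 0.02 under quantile normalization and median-of-ratios scaling.

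The intervals show the precision of the differences under a spread shared by all 24 libraries, among them those labelled wild-type all cells. They do not measure the spread of the 8 libraries alone. For 9605 genes (65.3%) the 95% interval of the log2 difference lay between -1 and 1. The median half-width was 0.69, with quartiles of 0.54 and 0.88. A log2 difference of at least 1 in size was estimated for 107 genes (0.727%). These differences are on the log2(TPM + 1) scale, on which the change of a gene near 0 TPM appears smaller than it is.

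The number of calls depended on libraries outside the comparison. Without the libraries labelled wild-type all cells, a fit chosen after seeing the data, 4 genes passed the threshold (0.0272%), and all 4 were higher in *daf-16(lf)* muscle. They were F56A4.3 (adjusted p = 0.000181), C01B4.6 (0.000181), C04F5.8 (0.000181) and C01B4.7 (0.00465). Their estimates did not move, as the same 8 libraries give the difference in both fits. At an unadjusted p under 0.05 that fit gave 49 higher and 151 lower genes. A model of the 8 muscle libraries alone, which also leaves those libraries out, called 0 genes, with adjusted p of 0.0783 for C01B4.6, 0.216 for C04F5.8, 0.776 for C01B4.7 and 1 for F56A4.3. At an unadjusted p under 0.05 that model gave 84 higher and 239 lower genes. Quantile normalization called F56A4.3 and *col-33* (adjusted p = 0.0412 for each). Leaving out *daf-16(lf)* replicate 1 called F56A4.3, *col-33* and *irld-35* (Y19D10A.7), all higher in *daf-16(lf)*, with a smallest adjusted p of 0.00637. Weighting each library by an estimated quality called 1165 genes, 156 higher and 1009 lower in *daf-16(lf)* muscle, with weights from 0.127 to 10.8 whose estimation did not converge.

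**Figure D2:**
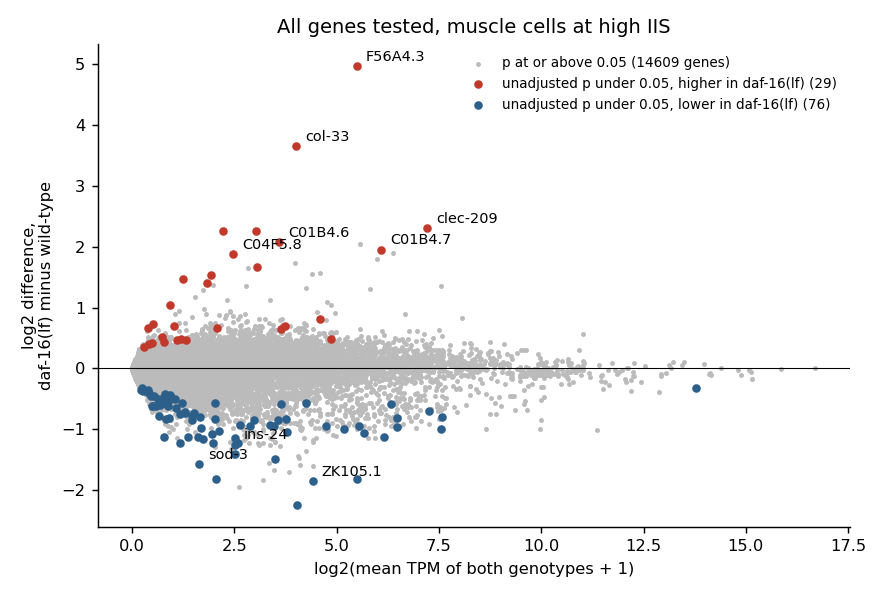
Log2 difference between daf-16(lf) and wild-type muscle cells (vertical) against log2 of mean TPM plus 1 (horizontal) for 14714 genes. Red points are the 29 genes higher and blue points the 76 genes lower in daf-16(lf) at an unadjusted p under 0.05, and F56A4.3 (4.97) and col-33 (3.65) lie highest.

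Of the 29 genes higher in *daf-16(lf)* at an unadjusted p under 0.05 (0.197% of those tested), 17 lie on chromosome V. That chromosome held 3008 of the 14714 genes tested. Of the 17 genes, 12 lie within 230 kb, between 2318490 and 2548150. This stretch was picked after its values were seen, so its counts are a description. It holds 47 genes, of which 22 passed the filter on low values and were tested. Of the 22, 12 were higher at that threshold and 0 lower, against 17 higher among the 14692 other genes tested (0.116%). Some, such as *irld-35* (Y19D10A.7) and *srbc-15*, reached 1 TPM in *daf-16(lf)* but not in wild-type muscle. The filter thus favours higher values among the tested genes of the stretch. The median log2 difference over the 22 genes was 0.74, and 18 of the 22 estimates were positive. In windows of 250 kb along the genome, the window that starts at 2250001 held 10 such genes and the next 2, and no other window held more than 1. Several of these genes are near-identical copies or overlap another gene, so their reads may be shared among them, and the single values are uncertain for that reason.

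F56A4.3 (2453414 to 2456147, forward strand) had the largest log2 difference of all genes. It was at 9.87, 63.5, 55.2 and 219 TPM in *daf-16(lf)* libraries 1 to 4, against 1.62, 0, 0.132 and 2.04 TPM in wild-type libraries 1 to 4. The lowest *daf-16(lf)* value was above the highest wild-type value, and the log2 difference was 4.97 ± 0.85 (95% interval 3.21 to 6.73; limma, adjusted p = 0.123). Within *daf-16(lf)* muscle it followed the spread of the replicates, with its highest value in replicate 4 and its lowest in replicate 1.

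C01B4.7 (2494235 to 2499001, overlapping *mct-2*) did not follow that order. It was at 169, 86.3, 104 and 72.5 TPM in *daf-16(lf)* muscle, against 37.2, 19.2, 27.8 and 22 TPM in wild-type muscle, a log2 difference of 1.95 ± 0.39 (adjusted p = 0.266). Its neighbour C01B4.6 (2501051 to 2502426) was at 21.7, 18.2, 18.7 and 15.4 TPM in *daf-16(lf)* muscle, against 4.57, 2.98, 4.35 and 2.79 TPM in wild-type muscle, a log2 difference of 2.07 ± 0.52 (adjusted p = 1). Both genes were free of overlap between the genotypes, with *daf-16(lf)* higher in all 4 same-numbered pairs. Without both replicate 4 libraries their log2 differences were 2.04 and 2.06.

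Other members of the stretch were more uneven. *clec-209*, which encodes a protein with a C-type lectin domain, was at 37.7 TPM in *daf-16(lf)* replicate 1 and at 96.8 to 818 TPM in replicates 2 to 4, against 24.3, 19.6, 16.9 and 59.1 TPM in wild-type muscle. The genotypes overlapped through *daf-16(lf)* replicate 1 and wild-type replicate 4. *irld-35* (Y19D10A.7), of a family named for a domain like that of the insulin and EGF receptors, was listed at 0 in *daf-16(lf)* replicate 1 and was at 4.78, 3.33 and 21.1 TPM in replicates 2 to 4, against at most 0.046 TPM in wild-type muscle. *srbc-15*, annotated as a pseudogene of a chemoreceptor family, was at 0.144, 1.45, 1.63 and 7.76 TPM in *daf-16(lf)* muscle, against 0.046, 0, 0.0363 and 0 TPM in wild-type muscle. The remaining genes past the threshold there were Y19D10B.6, C13B7.6, F56A4.5, F56A4.4, *irld-35* (F56A4.9) and Y45G12C.4, with log2 differences from 0.42 to 1.67.

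The stretch also held genes without such a difference. The *pud* genes are known to be raised in *daf-2* mutants, and *pud-1.2*, *pud-3*, *pud-4* and *pud-2.2* had log2 differences of -1.0, -0.39, -0.27 and -0.86, with 95% intervals that all included 0. The monocarboxylate transporter family gene *mct-2* had a log2 difference of 0.01 (95% interval -0.80 to 0.82). On the side of higher coordinates, gene starts from 108 to 277 kb beyond F56A4.3 had no gene higher at that threshold and 1 lower, *ndx-2* (log2 difference -0.78).

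**Figure D3:**
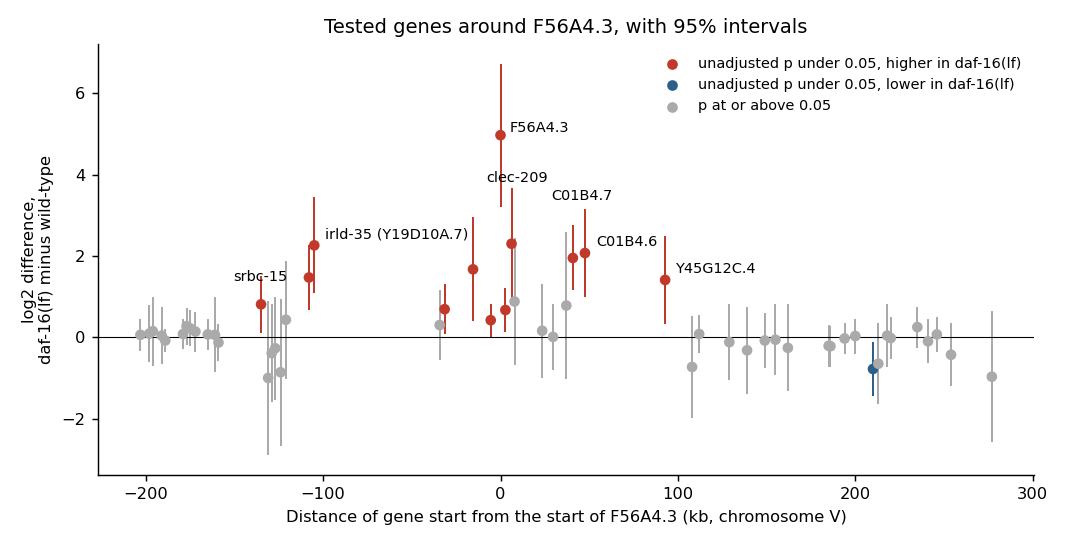
Log2 difference between daf-16(lf) and wild-type muscle cells, with 95% intervals, against the distance of each gene start from that of F56A4.3 on chromosome V in kb. The 12 red genes, higher in daf-16(lf) at an unadjusted p under 0.05, lie between -135 and 92.8 kb, and the blue gene at 210 kb is ndx-2.

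The levels of these genes in the other libraries differed from gene to gene. F56A4.3 was listed at 0 in all 3 *daf-16(lf); daf-2(lf)* and all 3 *daf-2(lf)* muscle libraries. It was at 366 and 306 TPM in the *daf-16(lf)* all cells libraries, against 0 and 53.4 TPM in the libraries labelled wild-type all cells. C01B4.6, by contrast, was at 21.8, 13.8 and 17.7 TPM in *daf-16(lf); daf-2(lf)* muscle and at 17.1, 13.7 and 26.6 TPM in *daf-2(lf)* muscle, overlapping the levels of *daf-16(lf)* muscle. At low IIS the log2 difference was 0.00 for F56A4.3 and -0.07 for C01B4.6. The dependence of the difference on IIS state did not pass for either gene (adjusted p = 0.27 for F56A4.3 and 0.705 for C01B4.6).

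Outside that stretch, *col-33* and C04F5.8 had the smallest p among the genes with higher values. *col-33* (chromosome IV, 4263293 to 4265223), a cuticle collagen, was at 2.12, 18, 6.97 and 92.6 TPM in *daf-16(lf)* muscle, against 0.217, 0.111, 0 and 0.340 TPM in wild-type muscle. The genotypes did not overlap, and the log2 difference was 3.65 ± 0.72 (95% interval 2.15 to 5.14; limma, adjusted p = 0.266). It was the only one of 137 tested *col* genes that was higher at an unadjusted p under 0.05, and the median over the family was -0.29. C04F5.8 (chromosome V, 5111518 to 5113754) was at 7.70, 6.10, 7.09 and 10.1 TPM in *daf-16(lf)* muscle, against 0.795, 1.64, 1.4 and 1.68 TPM in wild-type muscle. The replicates of each genotype lay close together, and the log2 difference was 1.88 ± 0.39 (limma, adjusted p = 0.392).

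Among genes with lower values in *daf-16(lf)* muscle, ZK105.1 had the smallest p. ZK105.1 (chromosome V, 7713991 to 7714698) was at 4.62, 8.06, 8.77 and 12 TPM in *daf-16(lf)* libraries 1 to 4, against 22.8, 29, 31.2 and 46.3 TPM in wild-type libraries 1 to 4. The libraries did not overlap, both genotypes ranked their replicates in the same order, and the log2 difference was -1.85 ± 0.40 (95% interval -2.69 to -1.01; limma, adjusted p = 0.465). Without the libraries labelled wild-type all cells its adjusted p was 0.0868. At low IIS the estimate was nearer to 0, with a log2 difference of -0.39 (adjusted p = 0.91), and the dependence on IIS state did not pass (adjusted p = 0.862). C06A1.6 (chromosome II) was at 0.374, 1.09, 0.977 and 1.17 TPM in *daf-16(lf)* muscle, against 1.93, 3.10, 3.47 and 4.15 TPM in wild-type muscle, also without overlap. C55C3.6 and C55C3.3 neighbour each other on chromosome IV (5683184 to 5684727 and 5685287 to 5688273). C55C3.6 was at 0, 0.251, 0.0734 and 0 TPM in *daf-16(lf)* muscle and at 1.52, 1.14, 0.898 and 1.97 TPM in wild-type muscle. C55C3.3 was at 0.0635, 0.377, 0.229 and 0.552 TPM in *daf-16(lf)* muscle and at 0.752, 2.86, 1.91 and 3.35 TPM in wild-type muscle. Their log2 differences were -1.13 and -1.23, with unadjusted p of 0.004 and 0.0124. The lowest log2 difference of all genes, -2.24, was that of *sip-1*, a stress-induced small heat shock gene singled out after its values were seen. It was at 1.22, 3.99, 3.36 and 11.1 TPM in *daf-16(lf)* muscle and at 8.07, 38.9, 20.9 and 35.3 TPM in wild-type muscle, lower in each same-numbered pair but with overlap between *daf-16(lf)* replicate 4 and wild-type replicate 1. The remaining genes of lower values without overlap and at 4 TPM or more in 1 genotype included D1054.18, K04G2.12, F09E10.1 and K08D12.8, with log2 differences of -1.41, -1.17, -1.01 and -0.93. In the model with all groups the interval of D1054.18 alone lay below 0. For K04G2.12, F09E10.1 and K08D12.8 the unadjusted p by limma was 0.135, 0.0823 and 0.0566 in that model. It was 0.0173, 0.0467 and 0.0277 without the libraries labelled wild-type all cells. In a model of the 8 libraries alone it was 0.00253, 0.00919 and 0.0256, and without both replicate 4 libraries 0.169, 0.198 and 0.0704.

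**Figure D4:**
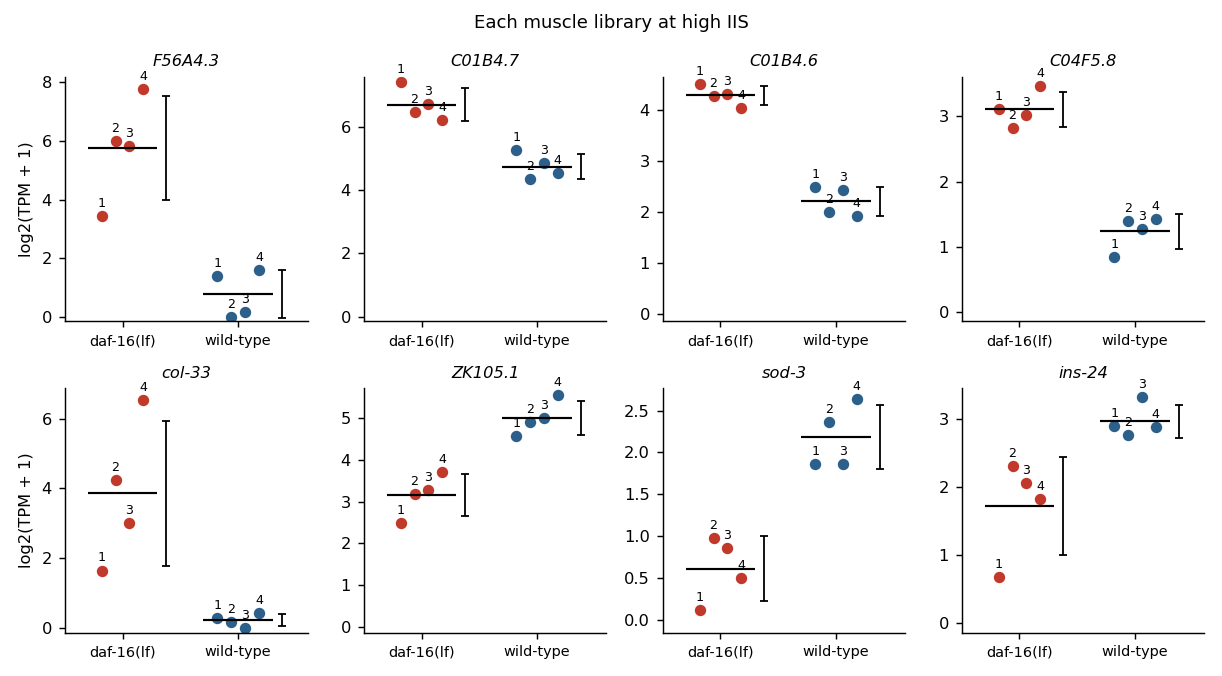
Log2(TPM + 1) of 8 genes in each muscle library, daf-16(lf) left and wild-type right, with the replicate number above each point, the mean as a line and the SD as a bar (n = 4 each). No gene overlaps between the genotypes, but all except sod-3 met a naming rule that asks for no overlap. The values of sod-3 lie between 0.0908 and 0.971 TPM in daf-16(lf) and between 2.64 and 5.22 TPM in wild-type muscle.

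*sod-3*, the mitochondrial superoxide dismutase most used as a reporter of DAF-16, was among the genes with lower values. It was at 0.0908, 0.971, 0.814 and 0.417 TPM in *daf-16(lf)* muscle, against 2.64, 4.16, 2.65 and 5.22 TPM in wild-type muscle. Every *daf-16(lf)* library was below every wild-type library, and the log2 difference was -1.57 ± 0.59 (95% interval -2.79 to -0.35; limma, adjusted p = 1). In the model with all groups its unadjusted p was 0.0143, against 0.000476 in a model of the 8 libraries alone and 0.0651 without both replicate 4 libraries. The *daf-2(lf)* muscle libraries held 221, 75.6 and 207 TPM of *sod-3*, against a mean of 3.67 ± 1.25 TPM in wild-type muscle. *sod-3* overlaps C08A9.3 and *lido-1* in the annotation, and their reads may not be told apart.

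The other known targets of DAF-16 showed no such separation. Of 30 tested genes known to rise with active DAF-16, *sod-3* alone had an interval below 0 and 0 had one above 0, against 0.517% of all genes lower at an unadjusted p under 0.05. The median log2 difference was -0.27 (all genes 0.00), with 25 negative estimates and 5 positive, and it was -0.28 under quantile normalization and -0.33 under median-of-ratios scaling. The metallothionein *mtl-1* averaged 5 ± 8.21 TPM in *daf-16(lf)* muscle and 26 ± 43.7 TPM in wild-type muscle, a log2 difference of -1.43 with an interval of -3.65 to 0.78. The lysozyme *lys-7* averaged 6.62 ± 4.64 TPM in *daf-16(lf)* and 12.9 ± 8.81 TPM in wild-type muscle (log2 difference -0.95, interval -2.08 to 0.17). Both varied more among replicates than between genotypes. The superoxide dismutase *sod-5* (log2 difference -0.17, interval -0.72 to 0.38) and the small heat shock gene *hsp-12.6* (0.11, interval -1.02 to 1.24) were near absent in both genotypes, with means of at most 0.413 TPM.

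**Figure D5:**
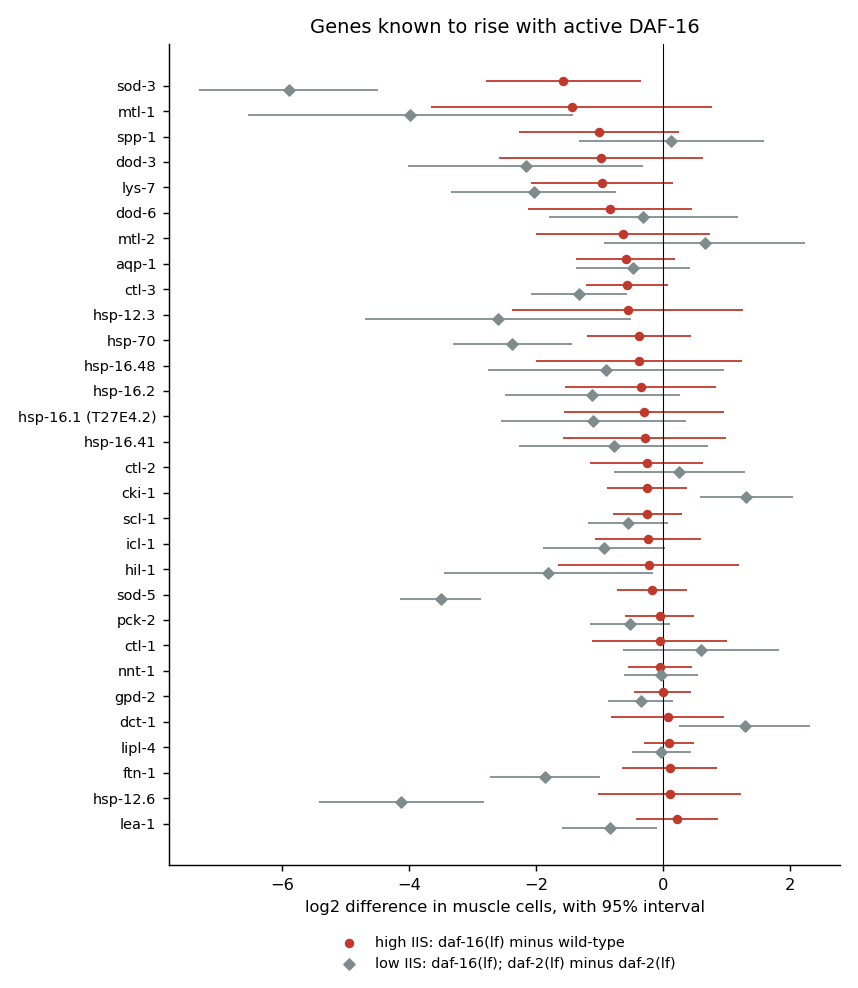
Log2 differences, with 95% intervals, of 30 genes known to rise with active DAF-16, at high IIS (red circles, daf-16(lf) minus wild-type) and at low IIS (grey diamonds, daf-16(lf); daf-2(lf) minus daf-2(lf)) in muscle cells. At high IIS 1 interval, that of sod-3, lies below 0, and the medians are -0.27 at high IIS and -0.86 at low IIS.

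Other targets were abundant in both genotypes. The phosphoenolpyruvate carboxykinase *pck-2* averaged 1815.5 ± 594 TPM in *daf-16(lf)* and 1853.0 ± 555 TPM in wild-type muscle (log2 difference -0.05, interval -0.60 to 0.50). The glyoxylate cycle gene *icl-1* averaged 1611.1 ± 659 TPM in *daf-16(lf)* and 1875.7 ± 805 TPM in wild-type muscle. The small heat shock gene *hsp-16.48*, of a family that cells induce under stress, averaged 4083.1 ± 1088.4 TPM in *daf-16(lf)* and 5211.5 ± 1243.9 TPM in wild-type muscle. *hsp-16.1*, *hsp-16.48* and their near-identical copies can share reads. Their part in the level of the other targets was not tested. Of 7 tested genes known to fall with active DAF-16, among them *dod-19* and *ins-7*, 0 had an unadjusted p under 0.05, and their median log2 difference was -0.02.

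The study listed 12 genes for this contrast, chosen on these same libraries, so their direction is not independent evidence. It took them at an adjusted p under 0.05 by a test of counts. Most were then set aside for low reads, and *daf-16* for the deletion itself. The study considers ZK105.1 and *col-33* unlikely targets. Of the 12 genes, 8 were abundant enough to be tested here, and 0 passed adjustment by limma. At an unadjusted p under 0.05, a looser threshold, 3 were higher and 5 lower in *daf-16(lf)* muscle, with a median log2 difference of -0.35. Besides *col-33*, *srbc-15*, ZK105.1, *daf-16* and C55C3.3, they were C10F3.7, *flr-4* and *fpn-1.2*. C10F3.7 rested on few libraries, at 0.240, 1.91, 0.172 and 20 TPM in *daf-16(lf)* muscle against 0.0593, 0.180, 0 and 0 TPM in wild-type muscle, and its log2 difference of 1.54 was 0.59 without both replicate 4 libraries. The kinase gene *flr-4* was at most 0.0399 TPM in *daf-16(lf)* and at 0.0876 to 1.05 TPM in wild-type muscle. The ferroportin gene *fpn-1.2* was at 0.0212 to 0.0657 TPM in *daf-16(lf)* and at 0.168 to 0.639 TPM in wild-type muscle. Neither overlapped between the genotypes, and neither exceeded 1.05 TPM in any of the 8 libraries. The 4 genes that were not tested, F23B2.10, *fbxb-33*, *gcy-3* and Y6B3B.1, did not exceed 0.0359 TPM in any of them.

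Among the genes of the pathway itself, a few insulin-like ligands were lower in *daf-16(lf)* muscle. Among 31 tested insulin-like ligands the median log2 difference was -0.08, with 0 higher and 3 lower at an unadjusted p under 0.05, where 0.197% of all genes were higher and 0.517% lower. These 3 genes, *ins-24*, *ins-26* and *ins-29*, lie within chromosome I between 14018799 and 14037777. *ins-24* was at 0.592, 3.96, 3.15 and 2.52 TPM in *daf-16(lf)* muscle, against 6.44, 5.78, 8.96 and 6.36 TPM in wild-type muscle, without overlap (log2 difference -1.25 ± 0.39, adjusted p = 1). *ins-29* was at 2.99, 7.7, 6 and 8.38 TPM in *daf-16(lf)* and at 12, 12.1, 15.2 and 9.90 TPM in wild-type muscle, also without overlap. *ins-26* overlapped, since its lowest wild-type value, 1.70 TPM in replicate 4, was below 3 of the *daf-16(lf)* values. Under the replicate block the unadjusted p was 0.0525 for *ins-26* and 0.0584 for *ins-29*. The most abundant ligand was *ins-27*, at 255 ± 70.1 TPM in *daf-16(lf)* and 264 ± 102 TPM in wild-type muscle.

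Among the receptor and the kinase cascade, 10 of 10 genes had 95% intervals within -1 and 1, and 0 had an unadjusted p under 0.05. The receptor *daf-2* was at 0.593, 0.625, 0.886 and 1.74 TPM in *daf-16(lf)* and at 0.610, 0.830, 1.23 and 1.08 TPM in wild-type muscle (log2 difference -0.01, interval -0.70 to 0.68). The PI3 kinase *age-1*, the phosphatase *daf-18* and the kinases *akt-1* and *akt-2* had log2 differences of 0.14, -0.07, 0.06 and -0.10. Of 21 partners and regulators of DAF-16, 0 had an unadjusted p under 0.05, and the median was 0.11. The 14-3-3 genes *ftt-2* and *par-5* were the most abundant, with log2 differences of -0.20 (interval -0.62 to 0.22) and 0.06 (interval -0.29 to 0.41).

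Muscle genes differed little between the genotypes. The 10 genes of body wall muscle had a median log2 difference of 0.09, and 0 had an unadjusted p under 0.05. Of 29 genes for the attachment and contraction of the sarcomere, 0 had an unadjusted p under 0.05 and 18 had intervals within -1 and 1. All 29 estimates were positive, from 0.01 to 0.79, with a median of 0.30, where 7488 of 14714 genes were positive. The medians were 0.22 under quantile normalization and 0.29 under median-of-ratios scaling. The titin gene *ttn-1* had the highest estimate, 0.79 (interval -0.28 to 1.86), at 8.74, 5.70, 10.2 and 37.2 TPM in *daf-16(lf)* and 2.86, 5.50, 10.7 and 9.62 TPM in wild-type muscle. The integrin *pat-3* was at 86.7, 60.2, 85.1 and 75.8 TPM in *daf-16(lf)* and at 42.9, 56.5, 84.9 and 47.5 TPM in wild-type muscle. Both genotypes overlapped in either gene. The muscle transcription factor *hlh-1* had a log2 difference of 0.17 (interval -0.28 to 0.61).

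Ribosomal and respiratory genes were measured with narrow intervals. Of 77 ribosomal protein genes 75 had intervals within -1 and 1, and 0 had an unadjusted p under 0.05. The median was -0.07, with 71 negative estimates, and it was -0.09 under median-of-ratios scaling and -0.07 under quantile normalization. Their summed level was between 85143.5 and 169522.9 TPM in *daf-16(lf)* and between 91416.3 and 152200.4 TPM in wild-type muscle, in each genotype highest in replicate 4. Of 39 genes of the respiratory chain and ATP synthase, 37 had such intervals, with a median of 0.08 and 0 at an unadjusted p under 0.05. Autophagy genes (17 tested, median 0.20), oxidative defence genes (11, median 0.09), organelle and cytosolic chaperones (10, median 0.05) and molting genes (12, median 0.08) also had 0 members at an unadjusted p under 0.05.

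Markers of other cell types were present at lower levels than those of muscle and varied among replicates, not in the same way in both genotypes. The summed level of 8 intestinal genes was 35.6, 115, 135 and 279 TPM in *daf-16(lf)* libraries 1 to 4, against 160, 230, 228 and 166 TPM in wild-type libraries 1 to 4. All 8 estimates were negative, with a median of -0.38, and 0 had an unadjusted p under 0.05. The intestinal actin *act-5* was at 10.1, 24.5, 25.3 and 66.3 TPM in *daf-16(lf)* and at 45.8, 42.9, 42.6 and 36.3 TPM in wild-type muscle. Pharyngeal muscle (4 genes, median -0.39), germline (6 genes, -0.28) and sperm markers (5 genes, -0.63) also had negative medians, while those of coelomocytes (2 genes, -0.15), neurons (8 genes, -0.05) and hypodermis (7 genes, -0.06) were nearer to 0. In these groups 0 genes had an unadjusted p under 0.05, and none of the markers was listed at 0 in all 8 libraries. The part of these cells in the 76 genes of lower values was not tested. The yolk protein genes *vit-2*, *vit-5* and *vit-6* and the adult collagen *col-19*, which mark adults, did not exceed 0.395 TPM in any of the 8 libraries. The animals are described as young adults. *vit-2* and *vit-5* are among the intestinal markers and *col-19* among the hypodermal ones, so their level in sorted muscle cells cannot tell the stage. The hypodermal collagen *dpy-7* was at 0.7 to 22.5 TPM in *daf-16(lf)* and at 2.19 to 7.67 TPM in wild-type muscle.

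Some genes followed the replicates in both genotypes. *ceh-34*, a homeobox gene of the sine oculis family, was at 297, 200, 234 and 7.83 TPM in *daf-16(lf)* libraries 1 to 4, and in wild-type muscle its replicate 4 was also the lowest, at 13.9 TPM, with 258 TPM in replicate 1 and 137 TPM in replicate 3. *far-3*, a fatty acid and retinol binding protein gene, was at 1.26, 4.4, 1.24 and 43.8 TPM in *daf-16(lf)* and at 3.43, 3.91, 1.68 and 67 TPM in wild-type muscle. F46G11.6, T07H8.11, Y51H4A.8 and Y75B12B.3 were likewise highest in replicate 4 of both genotypes. None of these 6 genes had an unadjusted p under 0.05, and they were named for this pattern.

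At the level of single transcripts, 0 of 21640 (0%) passed an adjusted p under 0.05 by limma, with 314 at an unadjusted p under 0.05 and a smallest adjusted p of 0.0572. The 3 transcripts at that value were *daf-16* a.1, the second transcript of *rla-2* and transcript F52A8.2b of *gpb-2*. The last 2 passed when replicate number entered as a block, but with that block in a model of the 8 libraries alone 0 transcripts passed, with a smallest adjusted p of 0.332. The *rla-2* transcript (Y62E10A.1.2), of a ribosomal protein gene with 2 transcripts in the table, had a log2 difference of -4.44 (adjusted p = 0.000898 with the block) and was listed at 0 in *daf-16(lf)* replicates 1 to 3 and in all 16 libraries outside the comparison, which enter its shared spread. The *gpb-2* transcript, of a G protein beta subunit gene, was at 3.52, 5.63, 2.34 and 4.99 TPM in *daf-16(lf)* muscle and was listed at 0 in wild-type replicates 1 to 3 (log2 difference 1.93, adjusted p = 0.0207 with the block). The share of a gene that is given to each of its transcripts is an estimate, and as a whole gene *gpb-2* had a log2 difference of 0.65 (unadjusted p of 0.0395).

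The dependence of the DAF-16 difference on IIS state was tested as the difference between the contrast at high IIS and that at low IIS in muscle cells. It passed for 24 genes (0.163% of 14714), 16 with a positive and 8 with a negative difference. In 23 of these the contrast at low IIS was itself called, while none was called at high IIS. For *sod-5* the log2 difference was -0.17 at high IIS and -3.50 at low IIS (adjusted p of the dependence = 0.000231), and for *hsp-12.6* it was 0.11 and -4.12 (adjusted p = 0.0382). For *sod-3* it was -1.57 and -5.89, and the dependence did not pass (adjusted p = 0.0526). C04F5.8 was the gene among the 24 that was not called at low IIS. Its level was 3.06, 4.07 and 4.62 TPM in *daf-16(lf); daf-2(lf)* muscle against 15.3, 15.6 and 10.1 TPM in *daf-2(lf)* muscle, so that its log2 difference was -1.57 at low IIS and 1.88 at high IIS (adjusted p of the dependence = 0.0141).

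The genes called at low IIS were also examined at high IIS. Of 14714 genes, 90 (0.612%) differed between double mutant and *daf-2(lf)* muscle cells. The 46 that were lower in the double mutant had a median log2 difference of -0.13 at high IIS, with 35 negative and 11 positive estimates, 1 higher and 1 lower at an unadjusted p under 0.05, and 32 intervals within -1 and 1. The 44 that were higher had a median of 0.00 at high IIS, 0 members at that threshold and 29 intervals within -1 and 1. Over all genes, 0.197% were higher and 0.517% lower at that threshold, 65.3% of intervals lay within -1 and 1, and 7488 of 14714 estimates were positive. The *daf-16(lf)* and wild-type libraries are separate from those of the low IIS contrast. Of 12 tested genes that the study lists at low IIS, 0 had an unadjusted p under 0.05 at high IIS, the median was 0.09, and 10 intervals lay within -1 and 1. Among them *cex-1*, a calcium-binding protein gene, was at 94.1, 92.1, 97.8 and 85.7 TPM in *daf-16(lf)* and at 95.5, 120, 124 and 101 TPM in wild-type muscle (log2 difference -0.24, interval -0.84 to 0.36). *gstk-2* and *mlcd-1* had log2 differences of 0.10 and 0.15. C54F6.5 was the exception without overlap, at 1.34, 0.195, 0.550 and 0.773 TPM in *daf-16(lf)* and at 2.24, 1.86, 2.84 and 2.44 TPM in wild-type muscle (log2 difference -1.0, interval -2.14 to 0.14). Its unadjusted p by limma was 0.0836 with all groups fitted. Dropping both libraries with the wild-type all cells label gave 0.0266, and fitting only the 8 libraries gave 0.00275. The replicate block gave 0.104, and leaving out both replicate 4 libraries gave 0.145. C54F6.5 passed adjustment in none of these fits.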

How the data were processed

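Polyadenylated RNA of FACS-sorted cells was sequenced, and the authors deposited 1 table of transcript abundance per library in TPM, with transcript and effective lengths in bases, made with Salmon 1.4.0 against WBcel235 according to the submitters' notes. TPM of transcripts (35749 in the table) were summed to genes by sequence name (21979), of which 21894 matched the annotation. The labels name 2 library kits without assigning them to libraries, and kit and library cannot be told apart here. Depth is unknown, as TPM keeps none.

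The 14714 genes that reached 1 TPM in 3 or more of the 24 libraries entered a linear model of log2(TPM + 1), fitted by limma 3.58.1 (R 4.3.3) with 8 group means, an abundance trend and Benjamini-Hochberg adjustment at 0.05, and 21640 single transcripts likewise. Fitting all groups gives them 1 shared spread. Differences are *daf-16(lf)* minus wild-type. Values of the 8 libraries were compared by exact permutation (scipy 1.17.1), with a smallest p of 0.0286. Scripts were tested on simulated data. The members and gene lists were chosen with earlier results of these data known.

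Same-numbered libraries of both genotypes deviated together (r = 0.551, 0.288, 0.61 and 0.683 for numbers 1 to 4), so the replicate number entered as a block in alternative fits. The main fit and the exact permutations did not use this pairing. Alternatives were quantile normalization, median-of-ratios scaling, a pseudocount of 0.1, a filter at 4 TPM, no filter, no trend, array weights, the 8 libraries alone, the replicate block and each replicate left out. Fits without the libraries labelled wild-type all cells or without both replicate 4 libraries were added after seeing the data. Genes were named by rule: the 12 smallest p, the 6 largest differences each way without overlap at 4 TPM or more, the genes listed by the study, *daf-2*, *sod-3*, list members with p under 0.05 or the highest mean, and the 6 widest replicate ranges. The *pud* genes, *mct-2*, *ndx-2*, *gpb-2*, *rla-2*, *sip-1*, the chromosome V stretch and further list members given as examples were chosen after their values were seen.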

Additional observations from a re-analysis of the deposited data

Results flagged for a closer look

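The difference for C04F5.8 between *daf-16(lf)* and wild-type muscle cells at high IIS minus that between the double mutant and *daf-2(lf)* at low IIS was 3.45 on the log2 scale (limma, adjusted p = 0.0141), with opposite signs in the 2 states. It was higher in *daf-16(lf)* in 4 of 4 same-numbered pairs at high IIS.

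In 20 of 173 groups of 4 libraries (11.6%), 1 library lay apart from the other 3 by Dixon's test. Chance flags about 1 in 20 groups, but these groups share the same 8 libraries and some genes were named for wide replicate ranges, so the share is a description. Most were replicate 4. In *daf-16(lf)* muscle, replicate 4 lay apart for *daf-16* (8.95 TPM), Y43F8B.1 (263), *unc-78* (63.4), *lev-11* (12400.6), *zyx-1* (912), *par-5* (320), *hsp-1* (440), *lin-42* (45.3), *atp-1* (4669.1) and *ceh-34* (7.83). In wild-type muscle, replicate 4 lay apart for *flr-4* (1.05 TPM), *lev-11* (14596.5), *zyx-1* (1019.9), *atg-4.1* (22.1) and F46G11.6 (27.2). *daf-16(lf)* replicate 1 lay apart for D1054.18 (0.197 TPM), K08D12.8 (13.9) and F56A4.4 (0). Wild-type replicate 1 lay apart for *irld-35* (Y19D10A.7, 0.046 TPM) and *nuo-3* (2473.5).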

How the results depend on the processing

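Against 0 genes that differed between *daf-16(lf)* and wild-type muscle, quantile normalization called 2, array weights 1165, the fit without those labelled wild-type all cells 4, and leaving out 1 replicate 0 to 3. The weights were not well estimated, as their fit stopped early. Genes at an unadjusted p under 0.05 (29 higher, 76 lower) numbered 75 to 768 with 1 replicate left out, 768 being without *daf-16(lf)* replicate 4, 935 with the block on the 8 libraries alone, 380 without both replicate 4 libraries and 304 under median-of-ratios scaling. Against 0 transcripts, a pseudocount of 0.1 called 2, a filter at 4 TPM 3, quantile normalization 9, median-of-ratios scaling 8, array weights 305, the replicate block 2, the fit without both replicate 4 libraries 7 (11 with the block), that without those labelled wild-type all cells 8, and leaving out 1 replicate 0 to 14. Against 24 genes whose difference depends on IIS state, array weights called 4819, the fit without both replicate 4 libraries 14 (12 with the block), that without those labelled wild-type all cells 30, and leaving out 1 replicate 14 to 35. The replicate block gave 19 such genes, 0 genes at high IIS, and 109 genes at low IIS against 90, and on the 8 libraries alone it gave 0 genes and 0 transcripts. The fit without the libraries labelled wild-type all cells gave 135 genes at low IIS. Against 177 genes without overlap, median-of-ratios scaling gave 366, quantile normalization 385, a filter of 1 TPM in 3 of the 8 libraries 99, and the 6 libraries without replicate 4 gave 2124. With fewer libraries more genes lack overlap by chance, so 2124 and 177 are not like counts. The p of PC1 was 0.143 to 0.971 with 1 replicate left out. No named gene at an unadjusted p under 0.05 changed direction under these alternatives, and outside array weights the named genes that passed were those given in the report. The causes were not tested. With 4 libraries a genotype and the spread shared by all 24 libraries, the typical interval reached 0.69 on the log2 scale to either side. Depth cannot be read from TPM.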
